A study of Mus musculus with 6 samples.

Results

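The heavy chain variable (VH) genes chosen here are the 37 mouse genes whose name begins with Ighv in the annotation GENCODE M1. This annotation holds 37310 genes. All 37 lie on the minus strand of chromosome 12 (assembly mm9), between chr12:114891502-114891935 (Ighv2-4) and chr12:117238239-117238672 (Ighv1-85). A further 79 VH genes of the same locus carry provisional names in this annotation. They were paired with their Ighv symbols through synonyms in RefSeq, so 116 VH genes could be described, while RefSeq lists 183 VH genes for the later assembly. Of the 116, 107 belong to the V segment class of RefSeq and 9 to the pseudogene class, and all 37 genes chosen by name are in the first class. Each gene was taken with 500 bp on either side, and the sequence outside these windows was taken as the sequence between genes. In a VH name the family comes first and a number within that family comes after the dash. That number does not always follow the order along the locus, since Ighv5-9-1 lies farther from the D segments than Ighv5-12.

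Pre-B cells came from C57BL/6 mice aged 6 to 14 weeks, of both sexes, that are RAG-/- and bear a rearranged IgM transgene (RAG-/- µ+). The endogenous VH genes of these cells therefore cannot rearrange, and the V segment of the transgene is not given in the sources used here. A single ChIP-seq library each was made for H3K27ac, for H3K4me3 and for Pax5. The 3 input libraries were not used here, and the lists hold no control group of cells, so the comparisons are between genes and places within each list.

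VH genes are the segments that RAG joins to a D and a J segment to make the variable exon of the heavy chain. Each has a leader exon, a V exon, a promoter that carries an octamer bound by POU factors, and, directly after the V exon, a recombination signal made of a heptamer, a spacer and a nonamer. H3K27ac marks active enhancers and promoters, H3K4me3 marks active promoters and is bound by RAG2, and Pax5 is the B lineage factor needed in pro-B cells to bring the distal VH genes close to the D segments. The families are not mixed evenly, since Ighv2 and Ighv5 lie nearest the D segments and Ighv1 and Ighv8 farthest.

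The lists matched the label of the cells in part. Of 8 B lineage markers, all had H3K27ac and Pax5 and 7 had H3K4me3 within 1000 bp of the gene start, and of 4 T cell markers none had any list. H3K27ac was also present at 3 of 4 myeloid and 2 of 3 erythroid markers, and H3K4me3 at 2 of each, while Pax5 was at none of these. The part of such cells in the VH values was not tested. The lists hold 69345 H3K27ac peaks, 23237 H3K4me3 regions joined from 25 bp bins, and 15445 Pax5 peaks. They cover 1.81%, 0.737% and 0.620% of the genome, respectively. They give no read counts, so the depth is unknown, and with 1 library per list no value below has a replicate error or a test.

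The VH families differ in the sequences next to the V exon. The recombination signals below are the best match to the heptamer CACAGTG and the nonamer ACAAAAACC with a spacer of 22 to 24 bases, on the minus strand and in the direction of transcription. Capitals mark the heptamer and the nonamer. They are shown because the Ighv8 family, which holds the VH gene with the highest H3K27ac score, matched these sequences less closely than Ighv1.

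Ighv8-6 (chr12:116403949-116403987): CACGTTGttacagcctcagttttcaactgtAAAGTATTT
Ighv8-5 (chr12:116305732-116305770): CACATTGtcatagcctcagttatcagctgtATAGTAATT
Ighv8-12 (chr12:116886117-116886155): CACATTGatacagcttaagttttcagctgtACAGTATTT
Ighv1-54 (chr12:116431848-116431885): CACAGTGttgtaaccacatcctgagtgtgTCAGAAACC
Ighv1-63 (chr12:116733798-116733835): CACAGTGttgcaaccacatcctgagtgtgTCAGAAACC
Ighv2-4 (chr12:114891463-114891501): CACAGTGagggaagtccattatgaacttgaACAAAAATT

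The exact heptamer was found after the V exon of 23 of the 37 genes and of 48 of all 58 Ighv1 genes, but of 0 of the 8 Ighv8 genes. It was also found at 0 of 2 Ighv11 genes, 0 of 1 Ighv12 gene and 4 of 10 Ighv5 genes. Out of 16 bases, the best signal of Ighv1 genes had a median of 3 mismatches (range, 2 to 8) and that of Ighv8 genes a median of 6.5 (range, 5 to 9). In Ighv8-13 and Ighv8-14 the annotated exon end gave no clear signal, with 9 and 7 mismatches. The annotated exons of Ighv1-18, Ighv1-62-1, Ighv1-73 and Ighv8-14 stop short of the V exon copies described below, and the search did not reach past those copies. Their 5, 8, 7 and 7 mismatches, respectively, therefore do not describe their signals, and they count as genes without the exact heptamer. A match to these letters is a description of the sequence and not a measure of recombination.

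Upstream of the genes, the octamer is shown in capitals for a pair of Ighv8 genes and for Ighv1 genes with and without H3K27ac, again on the minus strand.

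Ighv8-5 (chr12:116306252-116306311): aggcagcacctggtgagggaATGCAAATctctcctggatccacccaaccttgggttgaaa
Ighv8-12 (chr12:116886637-116886696): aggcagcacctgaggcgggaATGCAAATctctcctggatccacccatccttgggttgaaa
Ighv1-54, with H3K27ac (chr12:116432387-116432446): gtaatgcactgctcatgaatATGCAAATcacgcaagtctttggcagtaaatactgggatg
Ighv1-85, without H3K27ac (chr12:117238740-117238799): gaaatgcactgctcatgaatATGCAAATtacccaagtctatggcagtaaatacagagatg

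The octamer ATGCAAAT was searched on both strands in the 300 bp before each annotated gene start. It was present at 31 of the 37 genes (83.8%), against 890 of 37308 annotated genes (2.39%). It was present at 16 of 18 genes with H3K27ac and at 15 of 19 without. In the 64 genes with an annotated leader exon that held it in the direction of the gene, a median of 100 bases (range, 76 to 240) separated it from the start. None of the 10 annotated Ighv2 genes held it.

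H3K27ac was the only one of the 3 lists found at the 37 genes. A peak overlapped the window of 18 of 37 genes (48.6%), while H3K4me3 and Pax5 overlapped 0 of 37. Over all annotated genes the same windows held H3K27ac at 38.9%, H3K4me3 at 37.7% and Pax5 at 29.2%. Windows of 500 bp either side of the gene start, whose width is closer to that of the VH windows, held them at 31.1%, 33.6% and 23.5% of genes. The share of the 37 genes with H3K27ac was therefore near or above these backgrounds, whereas H3K4me3 and Pax5 at these genes were far below them. With the further 79 genes included, 39 of 116 genes (33.6%) had H3K27ac, 1 had H3K4me3 and 1 had Pax5. Of the 79 alone, 21 (26.6%) had H3K27ac, which is below both backgrounds for this list.

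At annotated genes in general, H3K27ac was mostly accompanied by the other lists, although over all H3K27ac peaks only 28.3% overlapped H3K4me3 and 25.0% overlapped Pax5. Of the 14506 annotated genes with H3K27ac in their window, 86.1% also had H3K4me3 and 69.6% also had Pax5. These windows span whole genes and are often wider than those of VH genes, which leaves more room for several lists. The same shares were not computed for windows at the gene start. At the 18 VH genes with H3K27ac, neither was present. No gene of the 116 had more than 1 list, with 75 genes having none and 41 having 1. Among the light chain Igkv genes, treated in the same way, 37 of 100 had H3K27ac, of which 9 also had H3K4me3 and 11 also had Pax5.

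**Figure D1:**
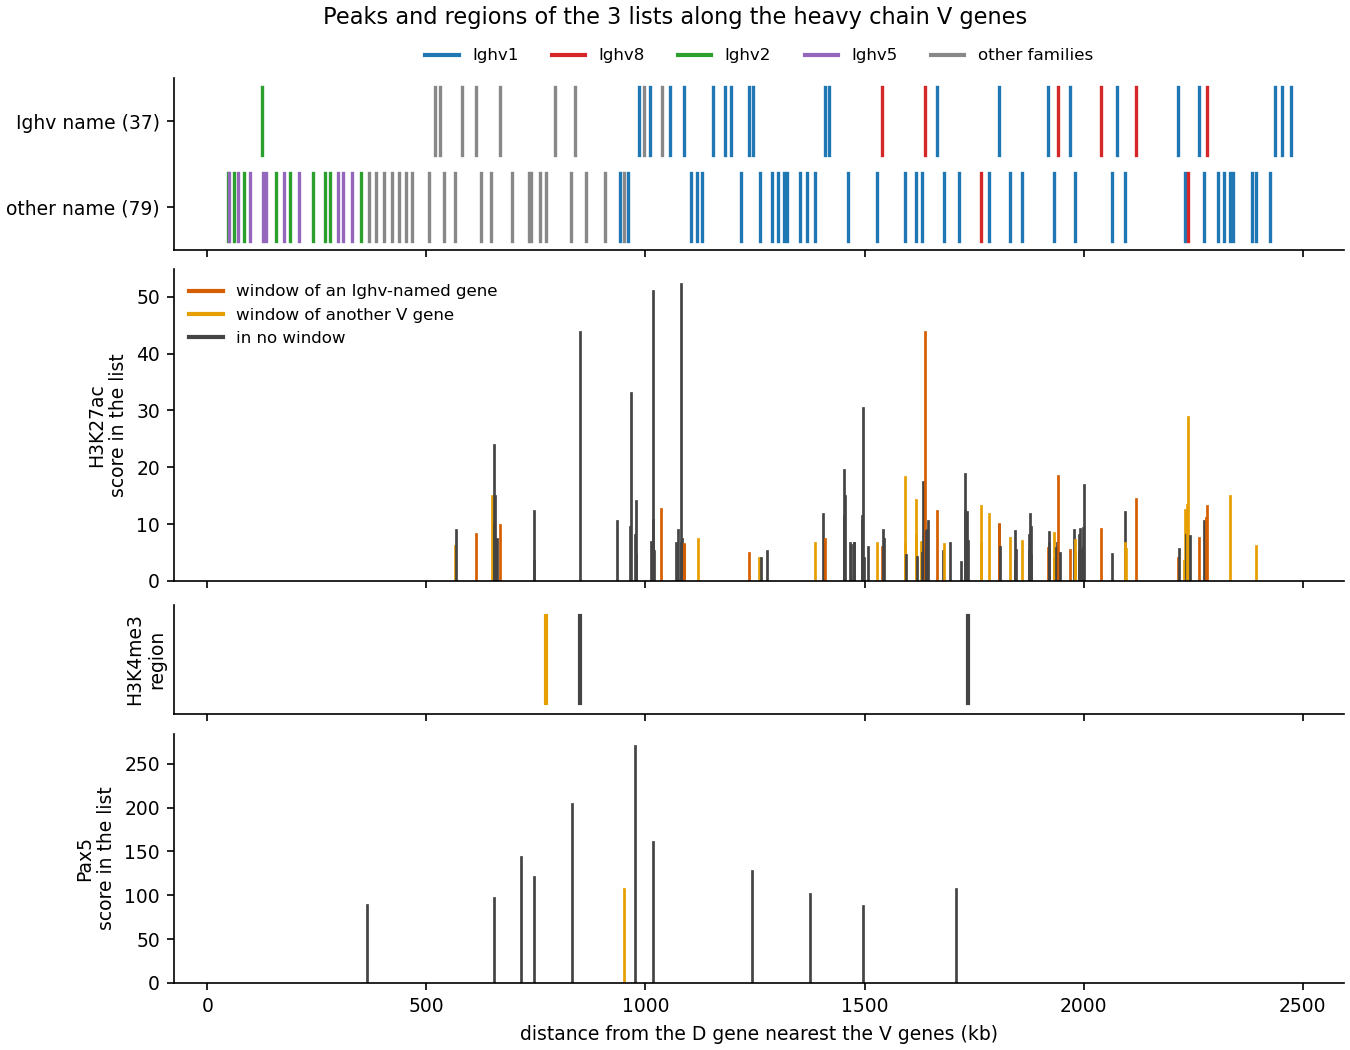
Position of the VH genes and of the 3 lists, as distance in kb from the D gene nearest to the V genes. The top row marks the 37 genes named Ighv and the 79 VH genes under other names, coloured by family. The stems give the score of each H3K27ac and Pax5 peak, the bars in the third row mark H3K4me3 regions, and the colour shows whether a peak lies in a gene window. H3K27ac is missing over the first 31 V genes and dense among the Ighv8 genes, and the last Pax5 peak lies well before the end of the locus.

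H3K27ac was found more often farther from the D segments. The 37 genes were split in order into 3 groups. In the group nearest to the D segments, 3 of 13 had a peak, namely Ighv9-3 (score, 8.27), Ighv3-3 (9.75) and Ighv15-2 (12.7). In the middle group 7 of 12 had one, and in the farthest group 8 of 12. Counted in the same way over all 116 genes, they were 4 of 39, 9 of 39 and 26 of 38. The peaks of Ighv3-3 and Ighv15-2 only reached the edge of the windows, since they lay 459 and 470 bp from the genes and covered 42 and 31 bp of the windows. The other 16 genes had H3K27ac over the gene itself, although at Ighv1-42 the peak only touched the 5′ edge of the gene (chr12:116175617).

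The D-proximal end of the locus was without H3K27ac. The first peak lay 519.8 kb beyond the start of the first V gene, after 31 of the 116 genes. This stretch holds all 10 annotated Ighv2 and all 10 annotated Ighv5 genes, and none of these had a peak from any of the 3 lists. Ighv2-4, the first of the 37 genes, was 168784 bp from the nearest H3K27ac peak and 149773 bp from the nearest Pax5 peak. Ighv5-2, the most D-proximal gene that is not a pseudogene in RefSeq, also had none of the lists, with its nearest Pax5 peak 74986 bp away. Ighv6-1 was not matched in this annotation and is not analysed here. At the other end, the last 4 of the 116 genes had no H3K27ac, and Ighv1-85, the last gene, was 46650 bp from the nearest peak.

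Every Ighv8 gene had H3K27ac. This was so for 6 of 6 genes named Ighv and for 8 of 8 in all, and no other family with more than 1 annotated gene was complete. Ighv8-6 (chr12:116403988-116404288) had the highest score of any VH gene, 43.7, which ranked 5117 among the 69345 peaks of the list. Its peak covered the entire window of 1301 bp. The scores were 18.5 at Ighv8-9, 14.4 at Ighv8-12, 13.2 at Ighv8-14, 9.16 at Ighv8-11 and 5.94 at Ighv8-5. Of the Ighv8 genes under provisional names, Ighv8-13 had 28.8 and Ighv8-8 had 13.2. Of these 8 values, only that of Ighv8-5 was below the median of the whole list, 8.52. The V exons of Ighv8-6 and Ighv8-9 were 97.7% and 98.7% identical to that of Ighv8-13. In the windows of the 8 genes, a median of 57.3% of words of 36 bases occurred at only 1 place in the genome, against 71.5% for all VH genes. At no more than 3 places the Ighv8 median was 96.1%. Reads of a gene can be counted at its copies, and the part of this in the scores was not tested.

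The 21 Ighv1 genes were mixed. Of these, 9 had H3K27ac, with scores of 12.4 at Ighv1-54, 9.93 at Ighv1-59, 7.55 at Ighv1-73, 7.40 at Ighv1-42, 6.43 at Ighv1-12, 5.82 at Ighv1-62-2, 5.41 at Ighv1-63, 4.86 at Ighv1-23 and 4.06 at Ighv1-71. The median top score of these 9 genes was 6.43, against 13.8 for Ighv8 genes. Of the 9, only Ighv1-54 and Ighv1-59 were above the median of the list. The 12 of the 21 genes without a peak were 2728 bp (Ighv1-7) to 60087 bp (Ighv1-84) from the nearest one. Over all 58 annotated Ighv1 genes, 26 had H3K27ac, with a median top score of 7.16 (range, 3.96 to 18.3). Of those under provisional names, Ighv1-50 (18.3), Ighv1-77 (14.97), Ighv1-52 (14.25), Ighv1-72 (12.5) and Ighv1-58 (11.7) were above the median of the list. The others under provisional names with a peak were below it.

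Ighv1 genes differed by their place relative to the Ighv8 genes, a split chosen after the values were seen. Between the first and the last Ighv8 gene, 6 of 7 Ighv1 genes named Ighv had H3K27ac, the exception being Ighv1-67. On the D-proximal side of them 3 of 11 did, and beyond them 0 of 3. Over all annotated Ighv1 genes the counts were 17 of 21, 7 of 27 and 2 of 10, respectively. With the Ighv1-like V exon copies without annotation included, which are described below, the counts were 18 of 28, 11 of 52 and 2 of 11. These places also differed in repeated sequence. In the windows of all annotated Ighv1 genes between the Ighv8 genes, a median of 84.3% of 36-base words occurred at no more than 3 places in the genome, against 93.9% on the D-proximal side and 90.1% beyond. For the Ighv1 genes named Ighv the medians were 91.1%, 94.7% and 86.7%, so that by this measure the genes beyond, without H3K27ac, were the most repeated. By words found at only 1 place, the genes between the Ighv8 genes were the most repeated. Those medians were 51.2%, 73.5% and 72.1% for the genes named Ighv, and 48.6%, 73.5% and 68.2% for all annotated Ighv1 genes. Reads from a repeated gene can be counted at its copies, and the part of this in the counts was not tested.

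**Figure D2:**
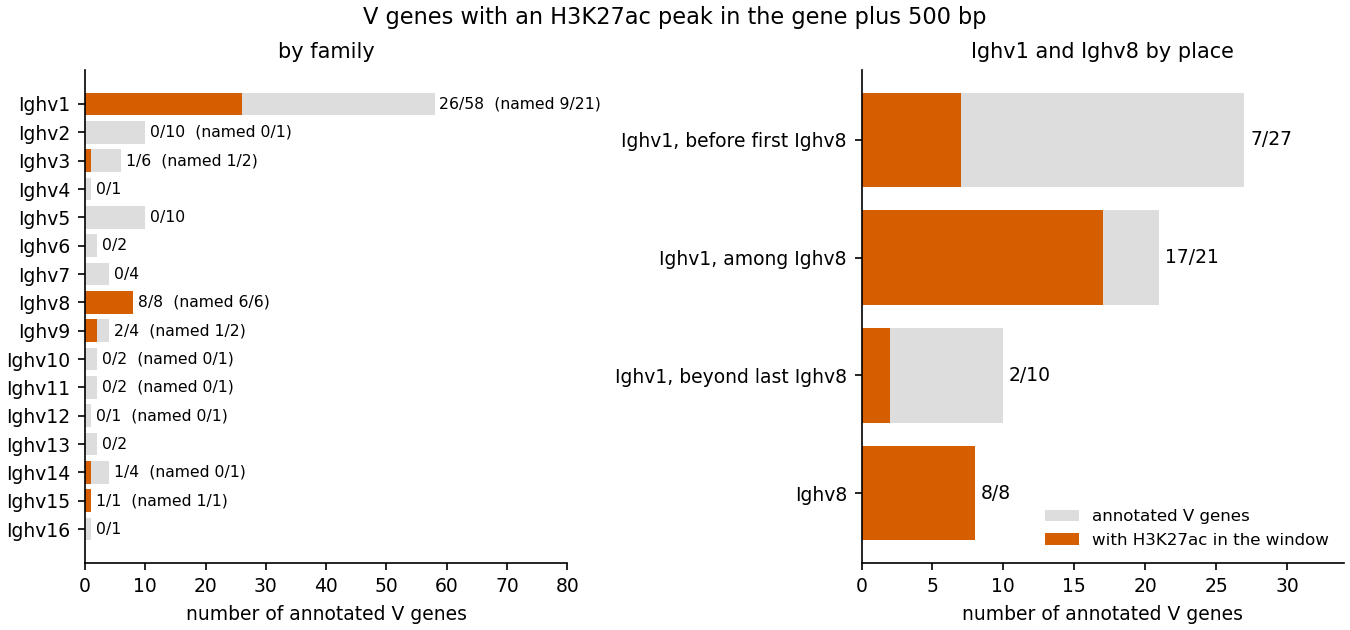
Number of annotated VH genes (grey) and of those with an H3K27ac peak in the gene plus 500 bp (orange), by family on the left, with the counts for the genes named Ighv in brackets, and for Ighv1 and Ighv8 by place on the right. All 8 Ighv8 genes and 17 of 21 Ighv1 genes among them had a peak, against 7 of 27 Ighv1 genes nearer to the D segments and 2 of 10 beyond.

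The other families had few peaks. Of the 10 genes named Ighv outside Ighv1 and Ighv8, the 3 D-proximal ones given above had H3K27ac. Those without were Ighv2-4, Ighv9-2, Ighv10-3, Ighv11-2, Ighv12-3, Ighv14-3 and Ighv3-8. Ighv11-2 and Ighv12-3 belong to families known from B-1 cells, and their nearest H3K27ac peaks were 45312 and 11616 bp away. Of the genes under provisional names, Ighv14-4 had the highest score in these families, 15.01. None of the 9 genes in the pseudogene class had a peak from any list. All 9 lay on the D-proximal side of the Ighv8 genes. There, 12 of all 77 annotated VH genes (15.6%) had H3K27ac, 1 had H3K4me3 and 1 had Pax5.

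H3K27ac lay on the V exon itself rather than on the promoter side alone. Of the 18 genes, 16 had a peak over the V exon, 12 over the sequence upstream of it and 10 over the sequence downstream. The peaks covered 29.7% of the V exon bases of the 37 genes, 15.7% of the upstream part and 15.05% of the downstream part. In the Ighv8 genes named Ighv these shares were 86.8%, 46.6% and 55.8%. The best match to the recombination signal lay under H3K27ac in 7 of 37 genes. Of these, 5 were Ighv8 genes, the family whose signals matched the consensus least. Annotations without a leader exon, which 15 of the 37 genes have, place the upstream part too close to the V exon.

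**Figure D3:**
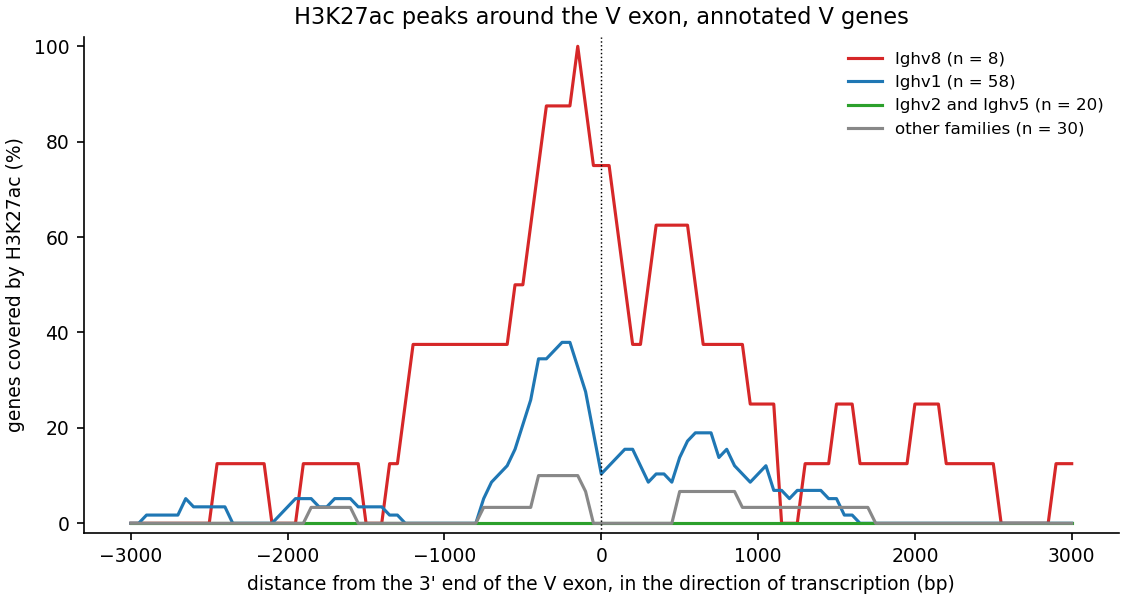
Share of the 116 annotated VH genes covered by an H3K27ac peak at each distance in bp from the 3′ end of the V exon, in the direction of transcription, by family group. At 150 bp before the exon end 8 of 8 Ighv8 genes were covered, Ighv1 reached 22 of 58 at 200 and 250 bp before it, and Ighv2 and Ighv5 stayed at 0.

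Single windows show the contrast. H3K27ac covered 1301 bp at Ighv8-6, Ighv8-9 had the same covered length, and the neighbouring Ighv1-54 (chr12:116431886-116432319) had 1267 bp. At Ighv1-12, Ighv1-59 and Ighv8-14 the window held 2 separate peaks, with 945, 407 and 887 bp covered. At Ighv1-63, which has the same octamer context as Ighv1-54 and a signal that differs from it in the spacer only, 284 bp were covered and the score was 5.41 against 12.4.

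The annotation misses many VH sequences, so V exons were also looked for by similarity, a step chosen after the data were seen. With the annotated V exons as queries, a minimum of 200 bp and 75% identity, the span from the first to the last of the 116 genes held 185 copies, 115 at annotated genes and 70 elsewhere. H3K27ac was within 500 bp of 39 of the 115 and 12 of the 70. Of the 70, 10 were most like Ighv8, and 6 of these had H3K27ac. One lay apart from the others, between Ighv6-6 and Ighv1-2 (chr12:115700503-115700811, 86.8% identical to Ighv8-5), 934.2 kb from the D gene nearest to the V genes, where the first annotated Ighv8 gene is at 1539.5 kb, and its peak had a score of 10.6. Another (chr12:116262228-116262541, 85.8% identical to Ighv8-13) lay under a peak with a score of 30.5 that also held a Pax5 peak. The 4 Ighv8-like copies without H3K27ac were the last 4, beyond Ighv8-14, and were 77.9% to 82.0% identical to Ighv8-5. A copy with H3K27ac (chr12:116241638-116241920, top score 6.66) was less identical to Ighv8-5 than these, at 77.2%. Of the Ighv1-like copies that were not annotated, 5 of 33 had H3K27ac. Whether these copies are genes or pseudogenes was not tested.

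**Figure D4:**
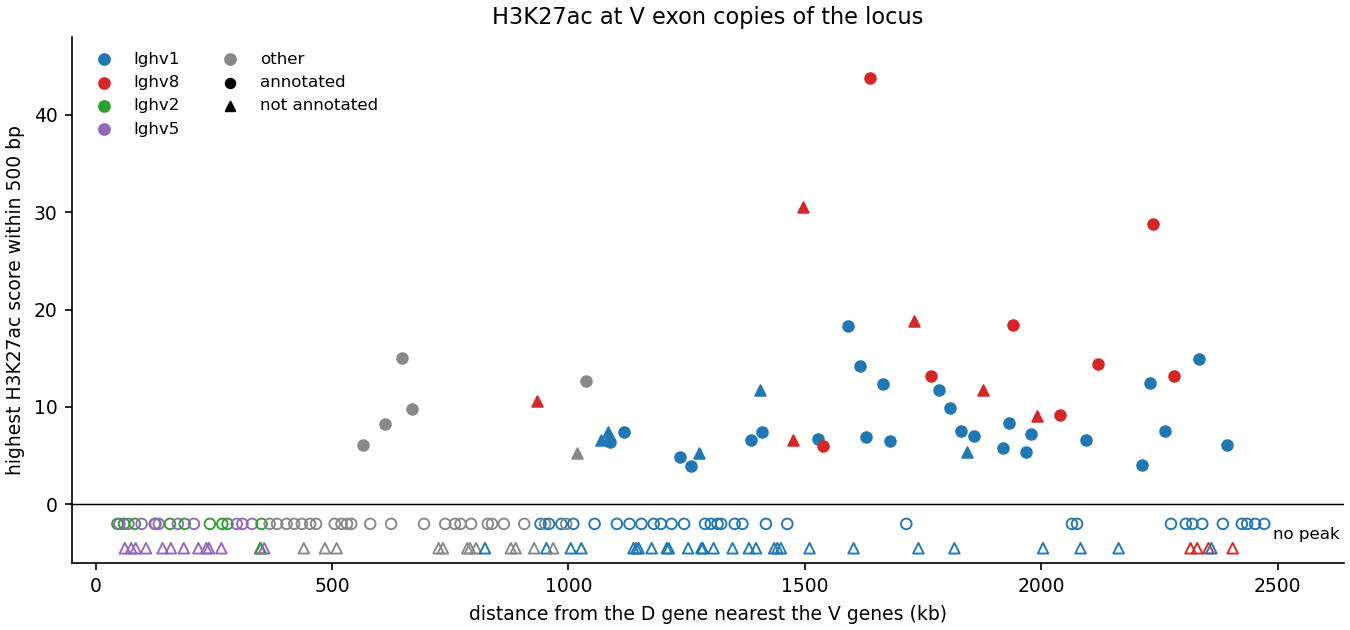
Highest H3K27ac score within 500 bp of each of the 185 V exon copies of the locus, by distance in kb from the D gene nearest to the V genes. Circles are annotated genes, triangles are copies without annotation, colours are families, and open symbols below 0 have no peak. All Ighv8 symbols (red) up to Ighv8-14 lie above 0, including 6 triangles, and the last 4 do not.

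Between the windows of the 37 genes lay most of the H3K27ac peaks of the locus. Of 145 peaks in the 2.35 Mb span, 21 overlapped a window of the 37 genes, 30 a window of the other VH genes and 94 none. The windows were denser, with 18.5% of their bases covered against 3.24% of the bases between them, both above the 1.81% of the genome. With all 116 genes as windows these shares were 13.6% and 2.73%. Of the 94 peaks outside all windows, 15 lay at a V exon copy without annotation and 22 within 2500 bp of a VH gene.

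The 2 highest H3K27ac scores of the locus were between genes. A peak of 52.2 (chr12:115846870-115849256) lay 4805 bp downstream of Ighv1-12, whose own window reached only 6.43. A peak of 51.0 (chr12:115783434-115784840) lay 6435 bp upstream of Ighv1-7, a gene without H3K27ac. A peak of 43.7 (chr12:115616781-115617744), equal in score to that over Ighv8-6, lay 11616 bp upstream of Ighv12-3 and overlapped an H3K4me3 region of 1100 bp. The median score was nevertheless 7.40 both between and within the windows of the 116 genes.

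H3K4me3 was nearly absent from the locus. The span held 3 regions, which covered 2350 bp or 0.102% of the sequence between the windows of the 37 genes. The longest, of 1225 bp (chr12:115537886-115539110), covered the V exon of Ighv9-4, a gene under a provisional name without H3K27ac. The second was the region near Ighv12-3 named above. The third was a single bin of 25 bp, 19955 bp upstream of Ighv1-56. The nearest H3K4me3 region of the 37 genes was a median of 203970 bp away.

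Pax5 peaks were low in score and lay in the proximal and middle parts of the locus. The span of the 116 genes held 12, or 4.94 per Mb against 5.82 per Mb of the genome, and they covered 0.320% of its bases against 0.620%. They had scores from 88.3 to 271 and a median of 114, against a median of 207 for the whole list and a lowest score of 87.9. Only 1 was above the median of the list. One overlapped a VH window, that of Ighv10-1 (chr12:115716967-115717447, score 107), and the other 11 were 951 to 29802 bp from the nearest VH gene, 5 upstream and 6 downstream of it. The peak nearest to one of the 37 genes lay 951 bp downstream of Ighv1-24, with a score of 128. None lay beyond the 1.71 Mb mark from the D gene, so the Ighv8 genes were a median of 235282 bp from Pax5. H3K27ac overlapped 5 of the 12, against 79.3% of all Pax5 peaks. The share for Pax5 peaks of similarly low score was not computed. The Pax5 core GCGTGAC, searched on both strands in the central 300 bp, was in 0 of the 12 and in 883 of the 15445 peaks of the list (5.72%).

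Of the 12 Pax5 peaks, 5 shared a repeated sequence, as found by a comparison of peak sequences with the locus that was chosen after the data were seen. The peak with the highest score, 271 (chr12:115743001-115743723, 7818 bp downstream of Ighv1-5), had 45 other copies of at least 300 bp and 80% identity in the span. Of these, 40 had no Pax5 peak, although the nearest of them in sequence was 95.1% identical. A stretch inside the peaks is shown for 3 peaks and this copy, with capitals at bases that all 5 peaks share.

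Pax5 peak of score 271 (chr12:115743515-115743574): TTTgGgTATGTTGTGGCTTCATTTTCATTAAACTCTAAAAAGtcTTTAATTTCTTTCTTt
Pax5 peak of score 107 (chr12:116474634-116474693): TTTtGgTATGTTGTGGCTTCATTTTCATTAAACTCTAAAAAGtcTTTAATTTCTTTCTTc
Pax5 peak of score 101 (chr12:116141500-116141559): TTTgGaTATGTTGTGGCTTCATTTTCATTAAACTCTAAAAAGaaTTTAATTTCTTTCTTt
Copy without a Pax5 peak (chr12:114915645-114915704): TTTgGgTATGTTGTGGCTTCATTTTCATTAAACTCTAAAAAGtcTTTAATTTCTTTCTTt

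The copy without a peak matched the first sequence at 60 of 60 bases. In the 5 peaks of this repeat, 17.0% to 80.5% of 36-base words occurred at no more than 3 places in the genome, and 1 of 5 had H3K27ac. In the other 7 peaks the shares were 61.0% to 100% and 4 had H3K27ac. The peak with 61.0%, of score 144 and downstream of Ighv3-5, had 217 of its 438 bp in a further copy of the repeat. The part of read placement in these peaks was not tested.

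Upstream of Ighv1-7 a Pax5 peak (chr12:115783112-115783863, score 160) overlapped the H3K27ac peak of 51.0, in a sequence with a near-identical copy upstream of Ighv1-4. The copy was 97.1% identical to the Pax5 peak. It had H3K27ac with a score of 33.1 but no Pax5 peak. The central stretches are shown with capitals at the bases that differ.

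With Pax5, near Ighv1-7 (chr12:115783427-115783546): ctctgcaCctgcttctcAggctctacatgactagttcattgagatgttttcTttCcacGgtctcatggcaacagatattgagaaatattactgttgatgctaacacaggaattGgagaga
Without Pax5, near Ighv1-4 (chr12:115732079-115732198): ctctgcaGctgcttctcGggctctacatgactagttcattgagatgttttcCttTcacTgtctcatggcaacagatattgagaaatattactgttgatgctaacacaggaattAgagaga

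The pair was identical at 114 of 120 bases. H3K27ac was therefore present at both copies and Pax5 in the list at 1, with no replicate to show how far the lists would vary.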

How the data were processed

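Pre-B ChIP-seq was analysed from 3 peak lists, 1 library each. Per the labels, the reads were aligned to mm9 with Bowtie 0.12.9 and peaks were called with MACS 1.4.2, with no caller settings given for these lists. The score in the deposited H3K27ac and Pax5 lists has no named scale and was compared within a list only. The H3K4me3 list that the authors deposited has no score but other values, 25 bp bins, and touching bins were joined. Depth is unknown.

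Genes came from GENCODE M1 on NCBIM37 (mm9), and symbols and classes by synonym from the RefSeq table of GRCm38. A gene had a list if a peak overlapped the gene plus 500 bp by 1 bp. Copies were searched with blastn 2.17.0. Words of 36 bases were counted over the genome on both strands. Functions were tested on simulated data. Genes were named by list overlap, highest scores, both ends of the locus and nearness to Pax5. The genes, lists and rules were chosen with earlier results of these data known. Python 3.11.15, numpy 2.4.6 and matplotlib 3.10.9 were used.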

Additional observations from a re-analysis of the deposited data

How the results depend on the processing

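With the higher-scoring 50% of the H3K27ac and Pax5 lists, 9 in place of 18 Ighv genes had H3K27ac, 4 in place of 8 did in the farthest of 3 groups of genes, 50 in place of 124 H3K27ac peaks lay outside the windows of the 37 genes, and 1 in place of 12 Pax5 peaks did. With flanks of 1000 or 2500 bp, 1 gene had Pax5 in place of 0. With the 116 VH genes under any name, which was chosen after seeing the data, 39 genes had H3K27ac, 26 of them in the farthest group, 1 had H3K4me3 and 1 had Pax5. The other alternatives kept every count within 1.5 times: flanks of 0 to 2500 bp apart from Pax5 above, the midpoint or 50% of a peak, the V segment class, genes with repeated words left out, groups of equal length and bins joined across 100 bp. All 37 genes passed the filters on class and on repeated words. No paired analysis was possible because there is 1 library per list. The lists hold no reads, so a missing peak may reflect depth or repeated sequence.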

Other observations

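Genes that flank the VH genes were read from the same lists. Adam6a, which lies between the last D gene and the first VH gene, and Adam6b, on the other side of that D gene, had none of the 3 lists, like the windows of the first 31 VH genes. Ighm, the µ constant region, had 2 H3K27ac peaks (highest score, 8.95) and 2 Pax5 peaks (highest score, 209.6) and no H3K4me3. The cells also bear an IgM transgene, and whether its reads were counted at Ighm was not tested. Beyond the last VH gene, Zfp386 had all 3 lists, with an H3K27ac score of 17.8 and a Pax5 score of 115.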
